A study of Mus musculus with 14 samples.

Results

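The inhibitor PRT4165 was compared with its vehicle, DMSO, in Dnmt-TKO mouse embryonic stem cells, with 2 RNA libraries of each. Members were all genes that passed a filter on read counts, 16370 of the 37991 gene IDs in the count table, and the 4 libraries were among 14 in the series. Dnmt-TKO cells are a triple knockout of Dnmt1, Dnmt3a and Dnmt3b, the DNA methyltransferase genes, in the J1 line, an embryonic stem cell line of the 129S4/SvJae strain, so both groups lacked these enzymes. PRT4165, which the labels call a PRC1 inhibitor, is a small molecule known to block the ubiquitin ligase activity of Polycomb repressive complex 1. The labels give neither its dose nor the time of exposure, and do not say whether the Dnmt-TKO line was a single clone. The same pair of treatments in wild-type J1 cells, 2 libraries each, and 2 libraries of untreated Dnmt-TKO cells served for comparison. No label ties the numbered replicates to separate cultures, and the spread behind each p-value, taken between these libraries alone, may be technical.

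PRC1 is a chromatin complex built around the RING finger proteins Ring1 and Rnf2, which attach a single ubiquitin to histone H2A. With PRC2, which methylates histone H3, it holds developmental regulators silent in embryonic stem cells. DNA methylation is a separate silencing system, and germline genes with CpG-rich promoters are its best known targets in these cells. Misfolded protein in the cytosol releases heat shock factor 1 from its chaperones, and the factor then binds heat shock elements in the promoters of HSP70, HSP40 and related genes. Those chaperones refold proteins or pass them on for ubiquitination and destruction by the proteasome.

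The promoters of 5 genes of the heat shock response that rose with the inhibitor are printed because the largest changes lie in this group, and were chosen because each holds the motif searched. Each line holds the 200 bases before the transcription start, 5′ to 3′ on the strand of the gene, from RefSeq on GRCm38.p6. Capitals mark heat shock elements, searched as GAANNTTC or TTCNNGAA, motifs that read the same on both strands. The stretches are chr17:34972157-34972356 and chr17:34959239-34959438 on the minus strand, chr5:149636337-149636536 (minus), chr9:54699359-54699558 (plus) and chr5:139484492-139484691 (minus).
Hspa1a: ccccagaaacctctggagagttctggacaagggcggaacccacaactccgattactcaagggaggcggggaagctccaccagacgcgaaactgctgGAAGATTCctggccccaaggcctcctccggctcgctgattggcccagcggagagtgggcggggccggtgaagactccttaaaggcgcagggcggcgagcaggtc
Hspa1b: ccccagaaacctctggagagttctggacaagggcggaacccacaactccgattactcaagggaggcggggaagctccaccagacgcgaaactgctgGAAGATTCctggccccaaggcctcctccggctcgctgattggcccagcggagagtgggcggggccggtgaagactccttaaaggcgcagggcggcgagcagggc
Hsph1: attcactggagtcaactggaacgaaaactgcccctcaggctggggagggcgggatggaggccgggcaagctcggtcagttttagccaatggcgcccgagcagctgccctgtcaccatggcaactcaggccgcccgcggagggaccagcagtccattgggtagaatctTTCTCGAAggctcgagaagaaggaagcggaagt
Dnaja4: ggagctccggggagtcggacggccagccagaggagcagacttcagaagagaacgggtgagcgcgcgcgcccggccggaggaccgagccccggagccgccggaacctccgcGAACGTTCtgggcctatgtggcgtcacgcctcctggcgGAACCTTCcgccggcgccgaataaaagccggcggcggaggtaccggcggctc
Zfand2a: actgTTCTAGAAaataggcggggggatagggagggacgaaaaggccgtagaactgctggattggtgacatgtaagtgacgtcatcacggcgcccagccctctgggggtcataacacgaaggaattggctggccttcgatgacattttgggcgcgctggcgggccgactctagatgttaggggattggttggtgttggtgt
The Hspa1a and Hspa1b stretches were identical at 199 of 200 positions, and each held 1 element, starting at position -104 from the transcription start. Hsph1 had 1 element starting at -33, Dnaja4 had 2, at -90 and -52, and Zfand2a had 1 at -196. Over windows from 250 bases before to 50 after the start, 15 of the 34 chaperone genes called up that had a RefSeq promoter held such an element (44.1%). Among the other chaperone genes tested, 8 of 54 with a promoter held it (14.8%), as did 4587 of 27025 genes with any window (17%). Among the 10 chaperone genes that rose by more than 2-fold, all with a window, 7 held it and Dnajb1, Hsf3 and Hspa1l did not. The rise of Hsf3 (log2 change 1.33 ± 0.51, adjusted p = 0.0316 in edgeR) was not called without any 1 of the 4 TKO libraries (1.12 to 1.54, adjusted p = 0.0702 to 0.185). A match of letters is a description and does not show binding.

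Depth in the 4 libraries ran from 28053134 to 34949194 counts. Levels are in CPM, counts scaled to a common library total after TMM scaling, a correction for library composition, and are listed as replicate 1 then replicate 2. A gene was called when the adjusted p of edgeR's quasi-likelihood test, with Benjamini-Hochberg adjustment over the 16370 genes, was under 0.05. All adjusted p-values come from this test, and changes are log2 of inhibitor over vehicle ± standard error. Pou5f1, the core factor of pluripotent cells, stood at 532 and 571 CPM with vehicle and at 585 and 557 CPM with the inhibitor (adjusted p = 0.477), and 14.1% of its exon length overlaps another gene. The stem cell markers Esrrb, Sall4, Utf1 and Dppa5a were at 261 CPM or more in every library. Dppa5a went from 717 and 696 CPM with vehicle to 628 and 572 CPM with the inhibitor. Esrrb went from 342 and 351 to 336 and 327 CPM and Sall4 from 370 and 383 to 364 and 347 CPM. Utf1 went from 267 and 261 to 285 and 261 CPM. Of the same marker set, Dppa4 went from 112 and 111 CPM with vehicle to 95.4 and 91.9 CPM with the inhibitor. Sox2, Nanog, Tdgf1 and Zfp42, also of the set, were lower with the inhibitor too, with values given below. Of the markers of feeder fibroblasts, Dcn and Lum failed the filter, and Col1a1, Col1a2, Col3a1 and Postn were at 2.35 CPM or less in each library. Dnmt1 was read at 128 and 128 CPM with vehicle against 143 and 158 with the inhibitor, Dnmt3a at 40.9 and 41.7 against 38.6 and 38.8, and Dnmt3b at 41.1 and 43.8 against 49.8 and 46.9. Reads outside the deleted exons are counted too, so these values do not check the knockout.

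With the inhibitor, 3305 genes were called up (20.2% of those tested) and 3263 down (19.9%). The calls were nearly even in number but not in size, since 869 genes rose by more than 2-fold and 207 fell by more than 2-fold. Most of the large rises were in genes that were barely read with vehicle. Of the 2793 genes under 1 CPM in the vehicle libraries, 737 were called up, 674 of them by more than 2-fold, and 81 down. Such genes could pass the filter through the inhibitor libraries alone, so this count favours rises. Between 10 and 100 CPM, 1360 genes rose and 1933 fell of 6835. Above 100 CPM, 508 rose and 628 fell of 2191, and 3 of those rises exceeded 2-fold. The median change over all genes was -0.003. Counts of list members given below are to be read beside these shares of 20.2% up and 19.9% down.

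**Figure D1:**
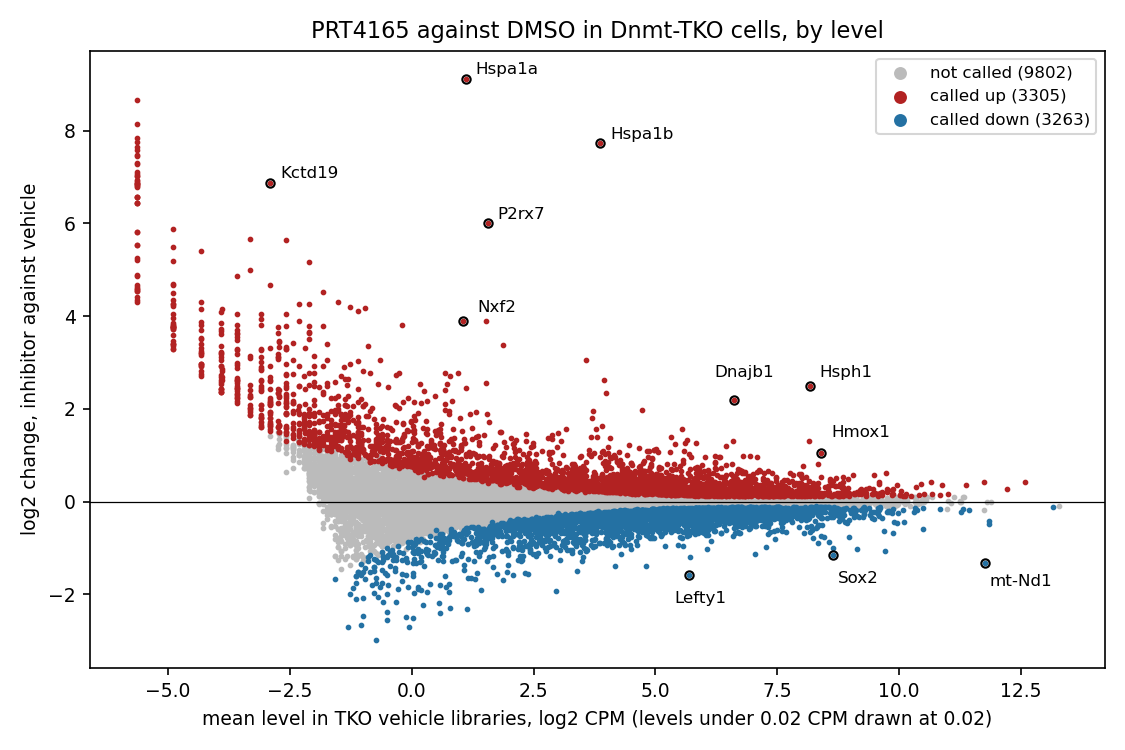
Each point is a gene: its mean level with vehicle (horizontal, log2 CPM) against its log2 change with the inhibitor in Dnmt-TKO cells (vertical). The 3305 genes called up reach further from the line of no change than the 3263 called down, and Hspa1a and Hspa1b stand above genes of like level.

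The inducible HSP70 genes had the 2 largest rises among named genes with a mean of at least 1 CPM. Hspa1b (ENSMUSG00000090877), a cytosolic HSP70, was at 13.8 and 15.4 CPM with vehicle and 2910 and 3273 CPM with the inhibitor (7.73 ± 0.10, adjusted p = 1.34e-24). Hspa1a (ENSMUSG00000091971), its near-identical neighbour on chromosome 17, went from 2.21 and 2.1 to 1139 and 1269 CPM (9.12 ± 0.20, adjusted p = 2.65e-24). Both replicates moved alike, and the groups were far apart in each gene. Because the 2 genes share nearly all of their sequence, reads that fit both may have been dropped or divided in counting, and 19% of the Hspa1a exon length overlaps Gm20481, so the split between them is uncertain. Hspa1l, a testis HSP70 beside them, rose by 5.63 (adjusted p = 7.34e-14), but 71.9% of its exon length overlaps Gm10501. Its change was 6.90 without TKO vehicle replicate 1 and 4.95 without TKO vehicle replicate 2.

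The HSP70 family moved in both directions. Of 14 members tested, the 3 above included, 8 were called up and 2 down, with a median change of 0.33. Hsph1, the HSP110 exchange factor that recharges HSP70, rose from 278 and 296 to 1563 and 1666 CPM (2.49 ± 0.05, adjusted p = 2.44e-20). Hspa4l, a relative of Hsph1, rose from 14.3 and 15.9 to 25.3 and 28.9 CPM (0.84 ± 0.09, adjusted p = 1.36e-07). The falls were in Hspa5, the HSP70 of the endoplasmic reticulum, from 944 and 936 to 598 and 584 CPM (-0.67 ± 0.05, adjusted p = 5.18e-11), and in Hspa13, from 33.7 and 35 to 25.1 and 25.6 CPM (adjusted p = 1.36e-05).

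Of 45 J-domain proteins tested, which deliver clients to HSP70, 8 were called up (17.8%, against 20.2% of all genes) and 12 down, and the median was -0.09. Dnajb1, a J-protein closely tied to heat shock, rose from 98.3 and 96.9 to 431 and 462 CPM (2.19 ± 0.06, adjusted p = 1.64e-18). Dnajb4 rose from 5.84 and 5.37 to 12.5 and 13.1 CPM, Dnaja4 from 2.72 and 2.0 to 6.23 and 5.83 CPM and Dnaja1 from 376 and 393 to 515 and 566 CPM (adjusted p = 1.16e-08, 2.05e-06 and 2.37e-08). In Dnaja4, 44% of the exon length overlaps Wdr61. The falls included Dnajc3 and Dnajc10, both of the endoplasmic reticulum, at -0.33 (adjusted p = 5.73e-05) and -0.28 (adjusted p = 4.26e-05).

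HSP90 and its partners were called up more often than down, with 13 of 27 members called up, 3 down and a median of 0.16. Hsp90ab1, the constitutive cytosolic HSP90, was at 6014 and 6170 CPM with vehicle and 8255 and 8082 CPM with the inhibitor (0.42 ± 0.05, adjusted p = 1.49e-07). The co-chaperones Stip1, which links HSP70 to HSP90, and Chordc1 rose by 0.57 (adjusted p = 6.21e-10) and 0.68 (adjusted p = 2.09e-10). Bag3, which sends HSP70 clients to autophagy, rose from 49.1 and 48.4 to 110 and 124 CPM (1.26 ± 0.06, adjusted p = 2.66e-13). Ttc4 fell from 49.4 and 49.5 to 33.7 and 32.4 CPM (adjusted p = 1.1e-08).

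Chaperonins and related folding factors had 9 of 13 members called up and 0 down (median 0.18), the count up being 5 without TKO vehicle replicate 2. Hspd1 and Hspe1, the mitochondrial pair, rose from 1299 and 1297 to 1599 and 1610 CPM and from 299 and 300 to 392 and 394 CPM (adjusted p = 1.3e-05 and 9.44e-07). Of the small heat shock proteins, 4 of 10 failed the filter, 2 were called up and 1 down. Hspb1 rose from 389 and 393 to 505 and 496 CPM and Hspb8 from 12.7 and 12.1 to 25.7 and 28.4 CPM (adjusted p = 6.29e-07 and 2.71e-09). Hspb6 fell from 2.72 and 2.67 to 2.02 and 1.46 CPM (-0.62 ± 0.21, adjusted p = 0.0201), and the count down was 0 without TKO vehicle replicate 1, TKO vehicle replicate 2 or TKO inhibitor replicate 2. Hsf1, the master regulator of the response, was at 38.8 and 42.1 CPM with vehicle and 48.4 and 46.7 CPM with the inhibitor (0.23 ± 0.07, adjusted p = 0.00657). The call was lost without TKO vehicle replicate 1 (0.16, adjusted p = 0.151) and without TKO inhibitor replicate 1 (0.19, adjusted p = 0.0936). Over all chaperone lists together, 42 of 112 genes tested were called up and 18 down.

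**Figure D2:**
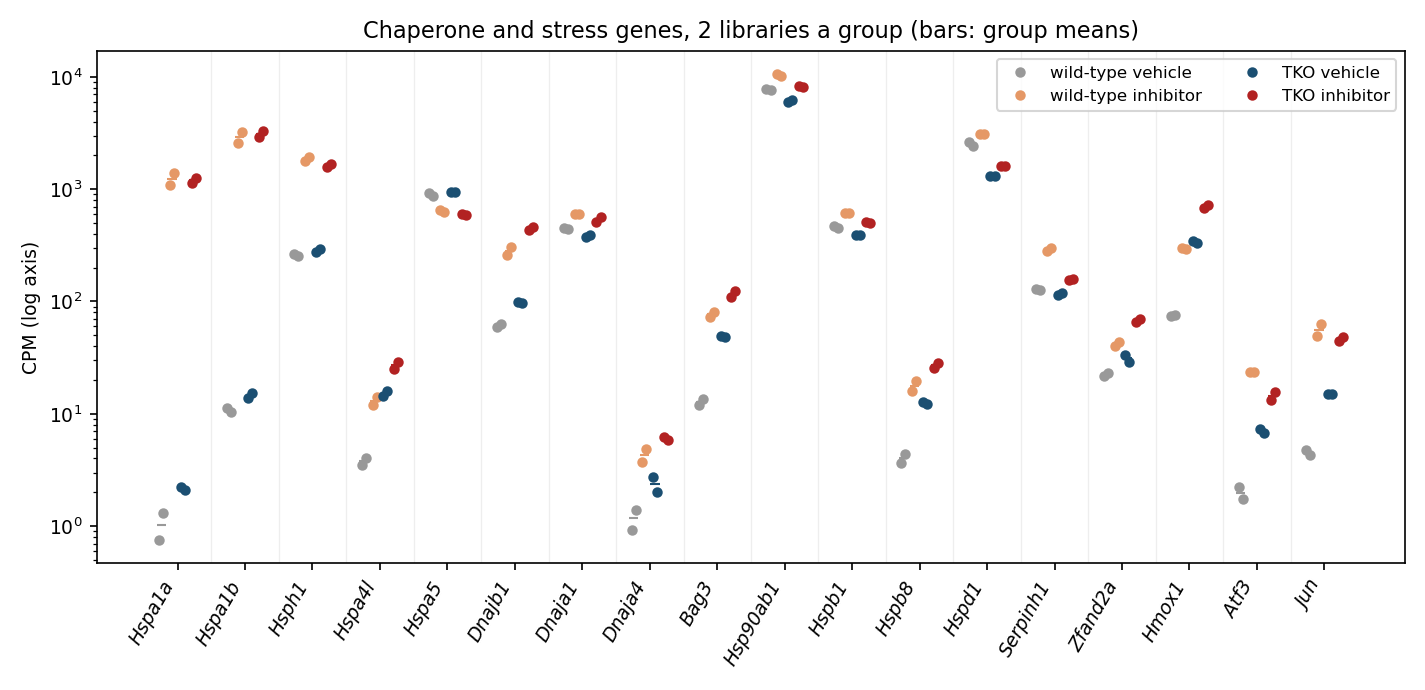
CPM on a log axis for 18 chaperone and stress genes, with 1 dot for each of 2 libraries and a bar for the mean of each group. Hspa1a and Hspa1b are far higher with the inhibitor in both genotypes, Hspa5 is lower, and Bag3, Atf3 and Jun start higher in TKO than in wild-type vehicle libraries.

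Genes that tag protein or carry it to the proteasome were called up more often than down. Of 23 ubiquitin genes, shuttles and VCP partners, 10 were called up and 2 down (median 0.08). Zfand2a, a stress-induced adaptor of the proteasome, rose from 33.2 and 29.2 to 65.1 and 70.2 CPM (1.12 ± 0.07, adjusted p = 3.78e-12). Sqstm1, the autophagy receptor p62, rose by 0.61 (adjusted p = 7.57e-11), with 17.3% of its exon length over Mrnip, and the shuttle Ubqln1 by 0.37 (adjusted p = 3.08e-07). Of 47 proteasome genes tested, 8 were called up and 10 down (median 0.0), and the count up was 4 without TKO vehicle replicate 1, TKO vehicle replicate 2 or TKO inhibitor replicate 1, 5 without TKO inhibitor replicate 2 and 13 without wild-type vehicle replicate 1 or wild-type vehicle replicate 2. The proteasome shares in the main fit, 17% up and 21.3% down, were near the 20.2% and 19.9% of all genes. Psmc2, an ATPase of the regulatory particle, rose from 175 and 178 to 254 and 255 CPM (0.53 ± 0.04, adjusted p = 1.36e-09). The activator Psme4 fell from 432 and 443 to 319 and 333 CPM (-0.42 ± 0.04, adjusted p = 7.91e-08).

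Other stress programmes were called unevenly. The endoplasmic reticulum list had 5 members up and 11 down of 29 (median -0.05), the count up being 3 without TKO vehicle replicate 2. The sensor kinase Eif2ak3 fell from 44.9 and 44.6 to 36.1 and 36.4 CPM (adjusted p = 0.000143). Genes of the integrated stress response, in which ATF4 directs amino acid supply when translation is curbed, went up in 23 of 44 cases and down in 3 (median 0.12), the count up being 14 without TKO vehicle replicate 2 and 15 without TKO inhibitor replicate 1. Ddit3, the factor CHOP, which both lists hold, rose from 4.83 and 5.4 to 8.85 and 9.58 CPM (0.85 ± 0.13, adjusted p = 1.24e-05). The pseudokinase Trib3 rose by 0.63 (adjusted p = 2.61e-06), the alanyl-tRNA synthetase Aars by 0.40 (adjusted p = 9.57e-08) and Atf4 by 0.29 (adjusted p = 5.67e-05). The ATF4 element TGATGNAA, on either strand, was in 8 of the 20 promoters available for those called up (40%), in 4 of 15 for those not called up (26.7%), and in 4.51% of all genes with a window.

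Targets of NRF2, the regulator of antioxidant enzymes, had 6 up and 8 down of 35 (median -0.02), the count up being 3 without TKO vehicle replicate 2 or TKO inhibitor replicate 1. Shares of the NRF2 list in the main fit, 17.1% up and 22.9% down, were near the 20.2% and 19.9% of all genes. Hmox1, heme oxygenase, rose from 346 and 333 to 679 and 725 CPM (1.05 ± 0.05, adjusted p = 1.56e-14). Gstm1 and Gsta4, glutathione transferases, fell from 19.8 and 22 to 11.4 and 10.5 CPM and from 181 and 181 to 122 and 115 CPM (adjusted p = 4.29e-08 and 5.55e-09). Metallothionein Mt2 fell from 123 and 117 to 97.6 and 89.3 CPM (adjusted p = 8.16e-06). Mtf1, the zinc-sensing factor that switches metallothioneins on, rose from 30.8 and 33.8 to 67.1 and 74.7 CPM (1.13 ± 0.06, adjusted p = 1.33e-12), so these 2 genes of the zinc list went opposite ways.

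Immediate early genes, which answer signals and stress quickly and need no new protein, had 22 members up and 6 down of 33, with a median of 0.41. That is 66.7% up and 18.2% down, against 20.2% and 19.9% of all genes. Jun, a subunit of AP-1, rose from 14.9 and 15 to 44.3 and 47.8 CPM (1.62 ± 0.09, adjusted p = 2.63e-12). Atf3, a repressor of the same family, rose from 7.35 and 6.77 to 13.3 and 15.6 CPM (1.03 ± 0.11, adjusted p = 5.94e-08), Ier5 by 1.44 (adjusted p = 6.09e-10) and Gadd45b by 1.05 (adjusted p = 1.07e-10). Rhob, a small GTPase of the list, fell from 69.5 and 64.8 to 33.4 and 32.7 CPM (-1.02 ± 0.06, adjusted p = 4.75e-12). Among p53 targets 15 of 37 were up (40.5%, against 20.2% of all genes) and 9 down (24.3%, against 19.9%), with a median of 0.10. Pmaip1, the death factor Noxa, rose from 14 and 15.2 to 28.2 and 29 CPM (adjusted p = 6.06e-09), and Trp73, a relative of p53, fell from 15.2 and 15.8 to 10.9 and 10.2 CPM (adjusted p = 8.79e-05).

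The messengers of PRC1's catalytic subunits did not pass the test. Ring1 was at 8.49 and 8.64 CPM with vehicle and 9.56 and 8.52 CPM with the inhibitor (adjusted p = 0.571), and Rnf2 at 122 and 126 against 120 and 119 (adjusted p = 0.331). Bmi1, which partners them in canonical PRC1, rose from 30.7 and 29.2 to 50.8 and 54.6 CPM (0.81 ± 0.06, adjusted p = 6.99e-10). Cbx7, the reader of H3 methylation in stem cell PRC1, fell from 125 and 121 to 83 and 83.7 CPM (-0.56 ± 0.05, adjusted p = 6.22e-09). Phc3, a polyhomeotic subunit, rose by 0.74 (adjusted p = 1.68e-06). As a list, PRC1 genes were up in 26.7% and down in 10% of cases, against 20.2% and 19.9% of all genes. In all, 8 of 30 PRC1 genes were up and 3 down (median 0.08), the count up being 5 without TKO vehicle replicate 1, TKO vehicle replicate 2 or TKO inhibitor replicate 1. Of 9 genes for enzymes that remove ubiquitin from H2A and their cofactors, 4 were called down and 1 up, the count up being 0 without TKO vehicle replicate 1, TKO vehicle replicate 2, TKO inhibitor replicate 1 or TKO inhibitor replicate 2. Usp3 rose from 20.8 and 21.4 to 25 and 24.5 CPM (0.23 ± 0.08, adjusted p = 0.0229). Mysm1 fell from 56 and 57.3 to 35.6 and 37.4 CPM (-0.64 ± 0.05, adjusted p = 3.05e-09) and Asxl1 from 236 and 243 to 189 and 187 CPM (adjusted p = 9.55e-07).

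Hox genes, the textbook Polycomb targets, remained at low counts. Of 38 matched, 17 failed the filter, and 8 of the 21 tested were called up and 0 down, the count up being 4 without TKO vehicle replicate 2 or TKO inhibitor replicate 1 and 5 without TKO inhibitor replicate 2. With every library in, 38.1% of the tested Hox genes were called up, against 20.2% of all genes. Those barely read with vehicle could pass the filter through the inhibitor libraries alone, so this count favours rises. The summed level of the tested genes was 22.3 and 21.4 CPM with vehicle and 30.1 and 31 CPM with the inhibitor. Hoxd13 rose from 5.37 and 5.24 to 8.71 and 8.71 CPM (0.72 ± 0.12, adjusted p = 5.05e-05), and Hoxa7 from 0.57 and 0.634 to 1.26 and 1.86 CPM (adjusted p = 0.0018). In Hoxa7, 20.4% of the exon length overlaps Hoxaas3.

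Other developmental transcription factors were tested in 126 cases after 23 failed the filter. Of these 44 were called up (34.9%, against 20.2% of all genes), 31 of them by more than 2-fold. Another 18 were called down (14.3%, against 19.9%), and the median was 0.26. Here too, factors barely read with vehicle could pass the filter through the inhibitor libraries alone, which favours rises. The count up was 29 without TKO vehicle replicate 2, and the count down 10 without TKO inhibitor replicate 2 and 11 without TKO vehicle replicate 1. Irx5, a homeobox factor of heart and limb, rose from 2.92 and 2.07 to 9.17 and 9.95 CPM (1.94 ± 0.17, adjusted p = 2e-09), and Tbx1, of the pharyngeal arches, from 1.48 and 1.73 to 5.73 and 7.03 CPM (1.98 ± 0.21, adjusted p = 3.42e-08). Foxl2, the ovarian factor, rose from 0.302 and 0.467 to 2.57 and 3.28 CPM (adjusted p = 1.15e-07). Neurog2, a proneural factor, went from 0.0 and 0.0667 to 1.97 and 2.45 CPM, and its fitted change of 5.88 (adjusted p = 2.97e-08) rested on so few vehicle reads that it was 4.95 without TKO vehicle replicate 1 and 9.10 without TKO vehicle replicate 2. Factors already well read with vehicle were among those that fell. Zic5 fell from 57.2 and 56.6 to 41 and 40.1 CPM (adjusted p = 3.22e-07), Foxd3 from 48.5 and 47.1 to 35.5 and 36.1 CPM (adjusted p = 4.52e-06) and Pax6, the eye and forebrain factor, from 30.5 and 31.2 to 24.2 and 21.4 CPM (-0.43 ± 0.08, adjusted p = 0.000201).

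Among all genes tested, 27 were called up from 0 counts in both vehicle libraries. Genes at 0 counts with vehicle could pass the filter only through the inhibitor libraries, so a fall was not possible for them. A count of 0 allows up to 3 counts over the group, or 0.0502 CPM, and folds against that floor are lower bounds for counting error only. Tas1r2, a sweet taste receptor, reached 61 and 51 counts, at least 32.3-fold higher than the floor. Olah, a fatty acid thioesterase, reached 45 and 33 counts (at least 22.4-fold higher) and Gys2, the liver glycogen synthase, 29 and 34 counts (at least 18.4-fold higher). Wnt1, the founding Wnt ligand, reached 17 and 15 counts (at least 9.26-fold higher). These genes are best known from tongue, liver and neural tube, and stayed under 2 CPM here.

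General pluripotency factors fell or did not pass the test. Of 24 tested, 14 were called down and 0 up, with a median of -0.19. Sox2, the partner of Oct4, fell from 400 and 403 to 184 and 176 CPM (-1.16 ± 0.05, adjusted p = 3e-15). Tdgf1, the Nodal co-receptor Cripto, fell from 570 and 551 to 289 and 265 CPM (-1.02 ± 0.05, adjusted p = 9.79e-14). Fgf4, a joint target of Oct4 and Sox2, fell from 174 and 178 to 100 and 99.6 CPM (-0.82 ± 0.04, adjusted p = 1.13e-12), and Nanog from 498 and 485 to 361 and 351 CPM (-0.46 ± 0.04, adjusted p = 1.38e-08). The naive factors, which mark the ground state, had 12 down and 5 up of 22 (median -0.14), the count up being 2 without TKO vehicle replicate 1 or TKO inhibitor replicate 2 and 3 without TKO vehicle replicate 2 or TKO inhibitor replicate 1. Klf2 fell from 194 and 191 to 128 and 119 CPM (adjusted p = 3.8e-10) and Klf4 from 162 and 166 to 120 and 117 CPM (adjusted p = 5.24e-07). Zfp42, the marker Rex1, fell from 989 and 994 to 726 and 712 CPM (adjusted p = 1.53e-08), and Dppa3, the maternal factor Stella, from 16.5 and 15.2 to 9.09 and 9.14 CPM (-0.80 ± 0.10, adjusted p = 1.24e-06). Tbx3 rose from 103 and 104 to 137 and 140 CPM (0.41 ± 0.05, adjusted p = 4.74e-07).

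Of genes in Nodal and BMP signalling, 14 of 30 were down and 8 up (median -0.06), the count up being 5 without TKO vehicle replicate 1 or TKO inhibitor replicate 1. Lefty1, a Nodal antagonist and target, fell from 53.4 and 49.9 to 16.4 and 18.2 CPM (-1.58 ± 0.07, adjusted p = 8.67e-15), and the ligand Nodal from 74.4 and 75 to 48.5 and 48.2 CPM (-0.63 ± 0.05, adjusted p = 7.42e-10). Id1 and Id3, targets of BMP, fell from 131 and 133 to 55.6 and 64.6 CPM and from 68.1 and 66.2 to 45.4 and 46.7 CPM (adjusted p = 1.56e-11 and 1.9e-08). Smad1, the BMP effector, rose from 15.5 and 14.4 to 21.9 and 23 CPM (0.59 ± 0.08, adjusted p = 3.97e-06).

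Markers of other lineages did not share a direction. Of all genes 20.2% were up and 19.9% down. Trophoblast markers were 52.9% up and 2.94% down, and endoderm markers 11.5% up and 30.8% down. Trophoblast markers were up in 18 of 34 cases and down in 1 (median 0.41), the count down being 0 without TKO vehicle replicate 1 or TKO inhibitor replicate 2. The keratins Krt8 and Krt18 rose from 470 and 448 to 610 and 615 CPM and from 259 and 246 to 370 and 368 CPM (adjusted p = 2.58e-07 and 4.4e-08), and Tfap2c, a trophoblast and germ cell factor, by 0.48 (adjusted p = 4.32e-08). Endoderm markers were down in 8 of 26 cases and up in 3 (median -0.14), and Pdgfra, a receptor of primitive endoderm, fell from 16.9 and 16.9 to 11.2 and 10.6 CPM (adjusted p = 9.78e-06). Mesoderm markers had 7 up (31.8%) and 4 down (18.2%) of 22, the share down being near the 19.9% of all genes. Among them Cdh5, the endothelial cadherin, rose from 41 and 39.9 to 64.8 and 65.5 CPM (adjusted p = 2.31e-09). Fibroblast and feeder markers had 6 up (25%) and 4 down (16.7%) of 24, near the 20.2% and 19.9% of all genes. Their summed level was 850 and 865 CPM with vehicle and 970 and 945 CPM with the inhibitor. Of this, Fn1 alone gave 459 and 481, then 574 and 559 CPM. The part of a shift in cell types in the other results was not tested. In bulk RNA, fewer cells of a type and less RNA per cell cannot be told apart.

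**Figure D3:**
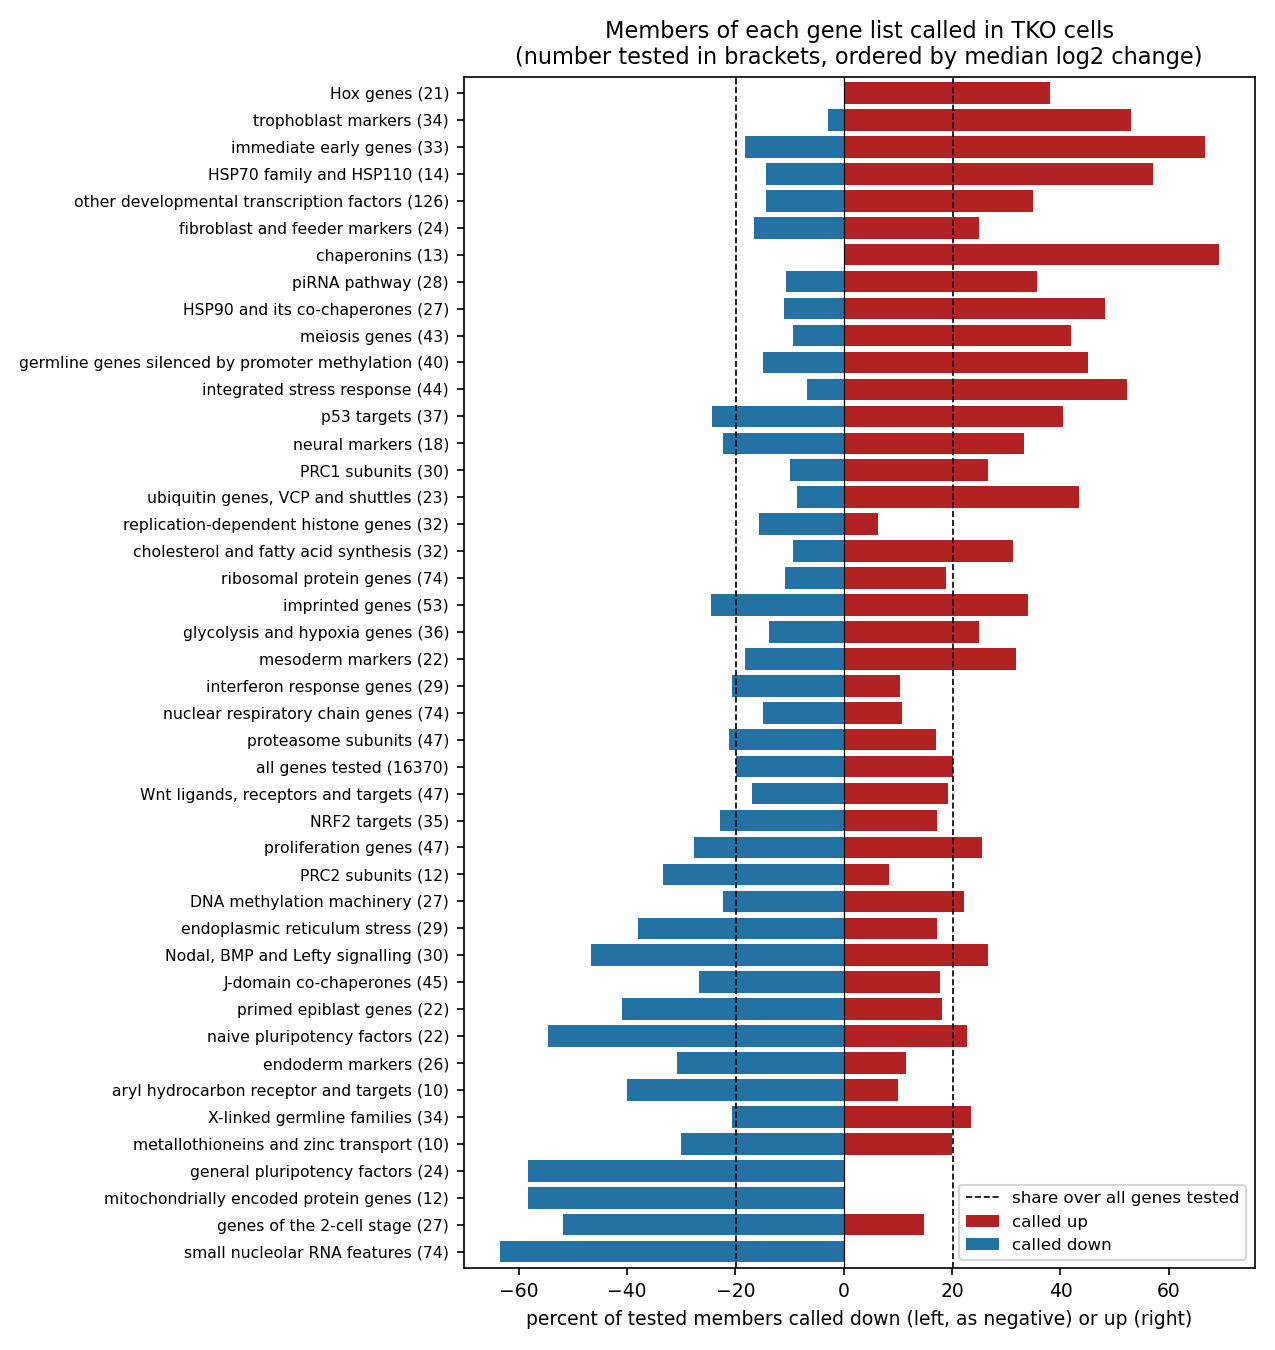
Percent of the tested members of each gene list called up or called down in Dnmt-TKO cells. Dashed lines mark 20.2% and 19.9%, the shares over all 16370 genes. General pluripotency factors, mitochondrially encoded protein genes and small nucleolar RNAs show falls and no rise, and chaperonins and Hox genes show rises and no fall.

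Germline genes that promoter methylation normally silences were read in Dnmt-TKO cells with vehicle, and part of the list rose with the inhibitor. Of 40, 18 were called up and 6 down (median 0.15), the count up being 11 without TKO vehicle replicate 2 or TKO inhibitor replicate 2 and the count down 3 without TKO inhibitor replicate 2. Dazl, the germ cell RNA-binding protein, rose from 89.1 and 84.9 to 115 and 119 CPM (0.43 ± 0.05, adjusted p = 4.95e-07). Tuba3b, a testis tubulin, rose from 13.2 and 12.9 to 43.3 and 47.8 CPM (1.81 ± 0.08, adjusted p = 1.06e-14), and Mael, of the piRNA pathway, from 14.3 and 15.7 to 30.1 and 32.8 CPM (1.07 ± 0.08, adjusted p = 2e-10). Tdrd9, a piRNA helicase, rose from 1.78 and 1.77 to 6.03 and 9.98 CPM (2.16 ± 0.23, adjusted p = 2.49e-08). Sycp3 of the synaptonemal complex, the protein axis of meiotic chromosomes, rose from 1.78 and 1.6 to 6.63 and 5.83 CPM (adjusted p = 3.58e-09), though 52.2% of its exon length overlaps Chpt1. Its partner Sycp1 fell from 14.1 and 13.5 to 8.74 and 9.55 CPM (-0.60 ± 0.10, adjusted p = 3.32e-05).

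Meiosis genes as a list had 18 of 43 up and 4 down (median 0.15), the count down being 1 without TKO inhibitor replicate 2 and 2 without TKO vehicle replicate 1 or TKO inhibitor replicate 1. Tex15, a factor of male meiosis, rose from 15.4 and 18.1 to 28.2 and 37 CPM (adjusted p = 1.2e-07). Among piRNA genes, which silence transposons in germ cells, 10 of 28 were up and 3 down. Among germline families on the X chromosome, 8 of 34 were up and 7 down (median -0.16), the count up being 5 without TKO vehicle replicate 1 or TKO inhibitor replicate 2 and the count down 2 without TKO inhibitor replicate 2 and 3 without TKO vehicle replicate 1 or TKO vehicle replicate 2. With every library in, 23.5% of these families were up and 20.6% down, near the 20.2% and 19.9% of all genes. Nxf2, a testis RNA export factor of that list, rose from 1.91 and 2.23 to 28.2 and 33.7 CPM (3.90 ± 0.15, adjusted p = 1.34e-16). The homeobox gene Rhox9 rose from 58.3 and 54.3 to 77.8 and 80.7 CPM (adjusted p = 2.02e-07), and Mageb16 fell from 36.3 and 34.5 to 22.8 and 20.9 CPM (adjusted p = 1.45e-07).

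**Figure D4:**
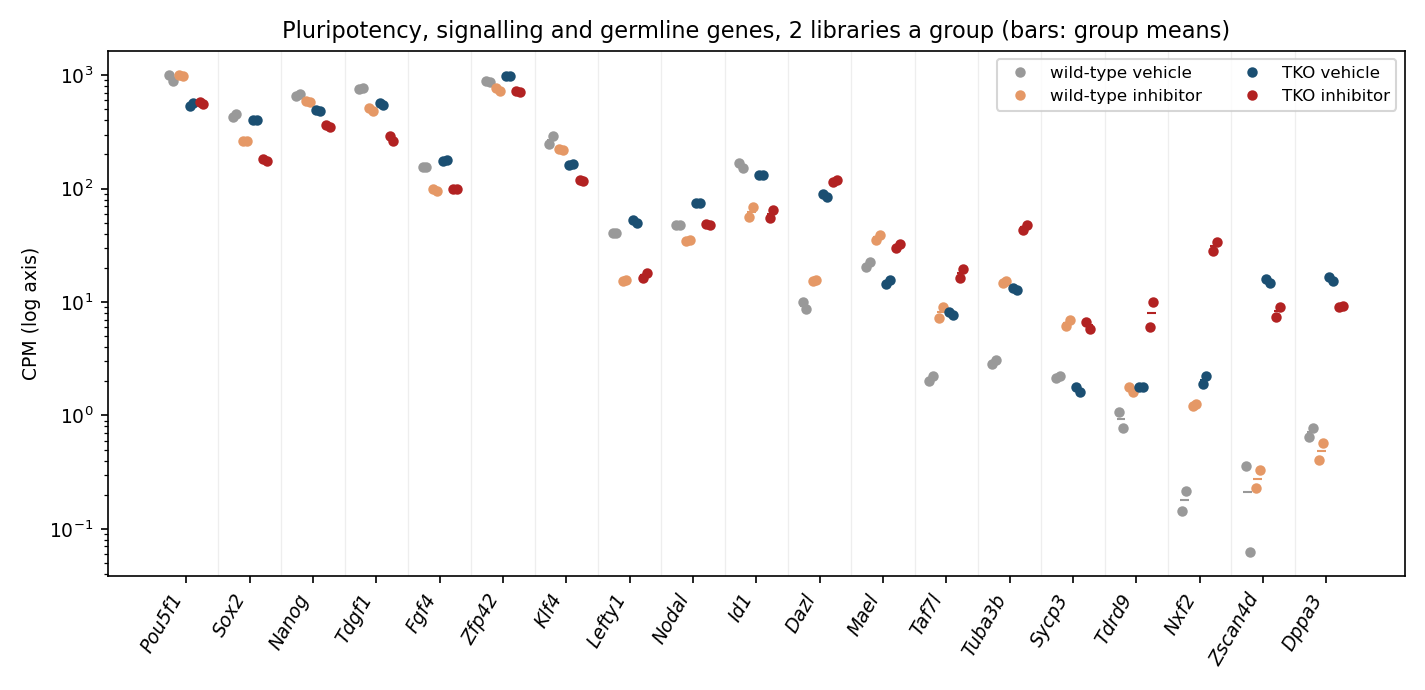
CPM on a log axis for 19 pluripotency, signalling and germline genes, with 1 dot for each of 2 libraries and a bar for the group mean. Sox2, Tdgf1 and Lefty1 are lower with the inhibitor in both genotypes, Tuba3b and Nxf2 are higher in both, and Dazl and Dppa3 sit above wild type in TKO cells with either treatment.

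Genes of the 2-cell embryo, which switch on in a small share of stem cells, were mostly called down or not called. Of 27 tested, 14 were down and 4 up (median -0.51), the count down being 8 without TKO vehicle replicate 1 and the count up 1 without TKO inhibitor replicate 2 and 2 without TKO vehicle replicate 1. Zscan4d, of the telomere-regulating Zscan4 family, fell from 16.1 and 14.6 to 7.43 and 9.11 CPM (-0.90 ± 0.13, adjusted p = 5.46e-06), and Zscan4f from 8.09 and 8.44 to 3.3 and 3.59 CPM (-1.26 ± 0.15, adjusted p = 5.25e-07). These genes belong to a cluster of near-identical copies, so their counts may be divided among them and are uncertain. Pramef8 of this list rose from 11 and 11 to 16.3 and 20.2 CPM (adjusted p = 3.23e-06).

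Imprinted genes, read from 1 parental allele where methylation is intact, had 18 up and 13 down of 53 (median 0.03). These shares were 34% up and 24.5% down, against 20.2% and 19.9% of all genes. The count up was 11 without TKO vehicle replicate 1, TKO vehicle replicate 2 or TKO inhibitor replicate 2, and the count down 6 without TKO vehicle replicate 1 and 8 without TKO inhibitor replicate 2. H19, a noncoding RNA that methylation keeps off on the paternal allele, rose from 1424 and 1362 to 1823 and 1816 CPM (0.39 ± 0.04, adjusted p = 2.21e-07). Peg10, a retrotransposon-derived placental gene, rose from 1633 and 1583 to 2164 and 2114 CPM (0.41 ± 0.05, adjusted p = 7e-07). Ndn, encoding necdin, fell from 19.5 and 19.6 to 11.7 and 11.3 CPM (adjusted p = 3.47e-07). Of the proteins that place or guard methylation, Uhrf1, the partner of Dnmt1, rose from 417 and 417 to 517 and 530 CPM (adjusted p = 1.59e-06). Zfp57, which guards imprints, fell from 312 and 321 to 216 and 207 CPM (adjusted p = 4.57e-10).

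Growth genes gave mixed calls. Among proliferation genes 12 were up (25.5%, against 20.2% of all genes) and 13 down (27.7%, against 19.9%) of 47. The replicative helicase subunit Mcm3 rose from 458 and 459 to 647 and 676 CPM (0.53 ± 0.04, adjusted p = 2.5e-09), while the nucleotide synthesis genes Rrm2 and Tk1 fell from 207 and 204 to 158 and 152 CPM and from 37.3 and 37.3 to 26.7 and 26.9 CPM (adjusted p = 9.64e-08 and 5.93e-07). Ribosomal protein genes had 14 up and 8 down of 74 (median 0.03), the count up being 0 without TKO vehicle replicate 1, 1 without TKO inhibitor replicate 1 and 3 without TKO vehicle replicate 2 and the count down 3 without TKO vehicle replicate 2 or TKO inhibitor replicate 2 and 5 without TKO vehicle replicate 1. In the main fit 18.9% of ribosomal protein genes were up and 10.8% down, against 20.2% and 19.9% of all genes. Glycolysis and hypoxia genes had 9 up (25%) and 5 down (13.9%) of 36, with a median of 0.02. Of those called down, Hk2, the inducible hexokinase of glycolysis, fell from 238 and 254 to 169 and 167 CPM (-0.55 ± 0.05, adjusted p = 5.09e-09).

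Of the transcripts of the mitochondrial genome, 7 of 12 were called down and 0 up (median -0.27), the count down being 11 without wild-type vehicle replicate 1 or wild-type vehicle replicate 2. The wild-type libraries enter this comparison only through the shared estimate of spread and the TMM scaling, which was computed over all 8 libraries. Subunit mt-Nd1 of complex I fell from 3510 and 3443 to 1270 and 1490 CPM (-1.33 ± 0.08, adjusted p = 1.52e-11), and mt-Co2 of complex IV from 3696 and 3643 to 2670 and 2797 CPM (-0.43 ± 0.05, adjusted p = 8.62e-07). Small nucleolar RNA features were down in 47 of 74 cases and up in 0 (1 without TKO vehicle replicate 1, median change -1.12), the count down being 29 without TKO inhibitor replicate 1 and 31 without TKO vehicle replicate 2. Their summed level was 92.9 and 94.1 CPM with vehicle and 38.6 and 46.7 CPM with the inhibitor. As a class these short RNAs mostly lie inside introns of host genes and lack a poly(A) tail. In the annotation, 100% of the length of Gm23130 overlaps exons of Rps12, and 100% of Gm23455 and Gm25791 those of Taf1d. For Gm26448 the overlap is 0%. What the counts hold, reads of host transcripts included, was not tested.

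Beyond the lists, the largest rises included P2rx7, an ATP-gated ion channel, from 3.36 and 2.57 to 173 and 207 CPM (6.0 ± 0.19, adjusted p = 3.55e-20). Kctd19, a gene of meiotic germ cells, rose from 0.101 and 0.167 to 14.2 and 18.3 CPM (6.88 ± 0.58, adjusted p = 2.73e-15), Tmprss9, a serine protease, from 0.134 and 0.0667 to 4.61 and 6.07 CPM (adjusted p = 1.79e-10), and Efcab6 from 0.336 and 0.367 to 6.03 and 8.15 CPM (adjusted p = 1.68e-11). Of these 4, P2rx7 alone was above 1 CPM with vehicle. Among the 15 largest falls, 4 were zinc finger genes. Zfp273 fell from 4.23 and 4.2 to 1.37 and 1.46 CPM (-1.58 ± 0.19, adjusted p = 3.71e-07), Zfp808 from 54.7 and 50.7 to 23 and 22.8 CPM (-1.20 ± 0.06, adjusted p = 2.01e-13) and Zfp101 from 11.8 and 10.8 to 4.56 and 4.65 CPM (adjusted p = 4.51e-08), and Zfp85, with 14.4% of its exon length over another gene, from 4.03 and 3.7 to 1.39 and 1.3 CPM (adjusted p = 4.63e-06). Counted after these were seen, 370 genes with a Zfp symbol were tested, and 174 were called down (47%, against 19.9% of all genes). Another 41 were called up, and the median was -0.26. In wild-type cells 165 of the 370 were called down and 30 up, with a median of -0.225.

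Wild-type cells gave 3143 genes up (19.2%) and 3069 down (18.7%) with the inhibitor over the same 16370 genes. The filter used the Dnmt-TKO libraries alone, so genes read only in wild-type cells are missing from these counts and from the interaction. The comparisons in the 2 genotypes share no library. In both genotypes 2025 genes were called up, 61.3% of the rises in Dnmt-TKO cells and 64.4% of those in wild type, and 2062 were called down, 63.2% and 67.2%. In opposite directions 85 genes were called. Across genes the changes had a Pearson r of 0.69 and a Spearman rho of 0.62, a description over genes that share the libraries of each genotype. Hspa1b went from 10.8 to 2892 CPM in wild-type cells and Hspa1a from 1.03 to 1231 CPM. The difference between genotypes in their change did not pass the test (adjusted p = 0.203 and 0.0654). Dnajb1 changed by 2.21 in wild type against 2.19 (adjusted p of the difference = 0.963), and Lefty1 by -1.39 against -1.58 (adjusted p of the difference = 0.303).

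The interaction of inhibitor and genotype was called in 648 genes, with the change higher in Dnmt-TKO cells in 293 (1.79%) and lower in 355 (2.17%). These counts were 127 and 192 without TKO vehicle replicate 1, 116 and 179 without TKO vehicle replicate 2, 140 and 212 without wild-type inhibitor replicate 2, 155 and 227 without TKO inhibitor replicate 1, and 144 and 225 without TKO inhibitor replicate 2. By a chi-square on raw counts, replicates of wild-type vehicle differed most among the groups, at 8.4 per degree of freedom. The value was 1.77 for TKO vehicle, 2.976 for wild-type inhibitor and 3.27 for TKO inhibitor. By correlation of log2 CPM, replicates of TKO inhibitor were the least alike (0.99815), and wild-type vehicle and TKO vehicle were equal (0.99839).

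Immediate early genes had the change called higher in Dnmt-TKO cells in 3 and lower in 5 of 33 cases, and genes of the integrated stress response in 2 and 3 of 44. The genes that follow were named for their small interaction p, so their sizes describe that choice. Atf3 went from 1.98 to 23.6 CPM in wild type against from 7.06 to 14.5 CPM in Dnmt-TKO cells (difference -2.55 ± 0.19, adjusted p = 2e-09). Jun went from 4.55 to 56 CPM against from 15 to 46 CPM (difference -1.99 ± 0.16, adjusted p = 1.08e-08). Bag3 went from 12.8 to 77.2 CPM against from 48.7 to 117 CPM (difference -1.33 ± 0.10, adjusted p = 9.51e-09). Hmox1 went from 74.8 to 296 CPM against from 339 to 702 CPM (difference -0.94 ± 0.07, adjusted p = 2e-09) and Efnb2, an ephrin ligand, from 4.56 to 27.8 CPM against from 33.5 to 55.5 CPM (difference -1.88 ± 0.11, adjusted p = 4.07e-11). Serpinh1, the collagen chaperone, went from 127 to 291 CPM against from 116 to 156 CPM (difference -0.76 ± 0.06, adjusted p = 2.79e-08).

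Some genes went opposite ways. Ccn1, a matrix protein and YAP target, went from 20.8 to 46 CPM in wild type and from 61.7 to 38.9 CPM in Dnmt-TKO cells (difference -1.81 ± 0.08, adjusted p = 1.03e-12). Mycn did the same, from 36.7 to 62 CPM against from 130 to 91.6 CPM (difference -1.25 ± 0.09, adjusted p = 2.07e-09), as did Cd24a, a surface glycoprotein, from 2.67 to 7.81 CPM against from 54.3 to 39.2 CPM (difference -2.0 ± 0.14, adjusted p = 8.43e-10). All 3 were called up in wild type and down in Dnmt-TKO cells. Myh14, a nonmuscle myosin, went from 15.9 to 80.6 CPM in Dnmt-TKO cells and from 8.5 to 9.56 CPM in wild type (difference 2.17 ± 0.12, adjusted p = 4.07e-11). Atf4 went from 58.3 to 71.1 CPM in Dnmt-TKO cells and from 261 to 208 CPM in wild type (difference 0.62 ± 0.07, adjusted p = 1.58e-06). Among pluripotency factors Sox2, which went from 441 to 264 CPM in wild type, fell further in Dnmt-TKO cells (difference -0.42 ± 0.06, adjusted p = 0.000209), as did Tdgf1 and Nanog (differences of -0.40 and -0.27, adjusted p = 0.000778 and 0.013).

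**Figure D5:**
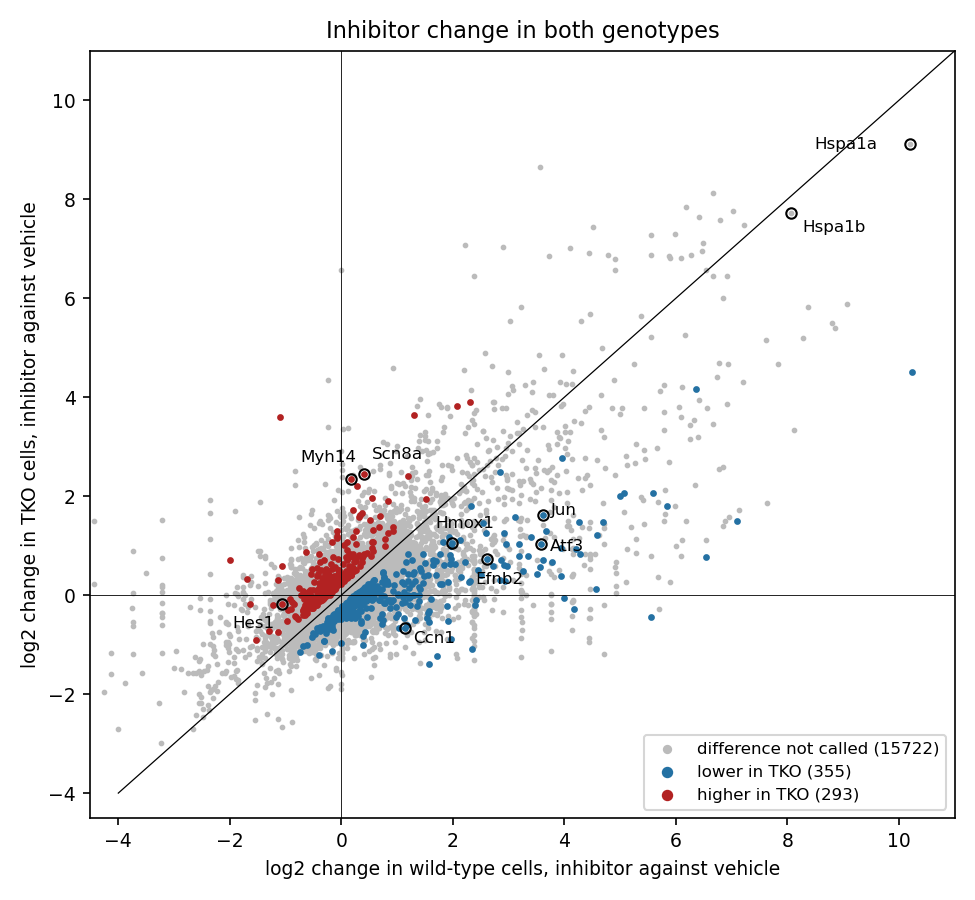
Each point is a gene: its log2 change with the inhibitor in wild-type cells (horizontal) against that in Dnmt-TKO cells (vertical), and 2 genes lie outside the axes. Coloured points have a called interaction (293 higher and 355 lower in Dnmt-TKO cells), with Atf3, Jun and Efnb2 below the line of equal change and Myh14 and Scn8a above it.

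Untreated Dnmt-TKO libraries were counted in a second table and scaled apart, so their levels are given with no comparison. Hspa1a stood at 0.398 and 0.968 CPM, Hspa1b at 6.79 and 6.13, Dnajb1 at 86 and 79.6 and Hmox1 at 115 and 123 CPM without treatment. Lefty1 stood at 156 and 264 CPM and Tdgf1 at 969 and 1006 CPM there. Sox2 was at 519 and 506 CPM and Dazl at 56 and 51 CPM.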

How the data were processed

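Poly(A) RNA was made into libraries with the NEBNext Ultra kit from 500 ng of total RNA and sequenced on an Illumina HiSeq, per the labels' protocols. The deposited tables hold whole-number read counts per Ensembl gene ID. Per the submitters' processing notes, the build was mm9 and the tools were Bowtie 0.12.8, TopHat2 2.0.2 and HTSeq 0.5.3p9. The strand setting and annotation release were not given in the sources used here. Genes with overlapping exons cannot be told apart where no strand was used. Symbols matched 32938 IDs.

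The 8 vehicle and inhibitor libraries of both genotypes, with 25588815 to 37399837 counts each, were fitted together in edgeR 4.0.16 (R 4.3.3, limma 3.58.1), with 1 term per group. Genes entered through edgeR's filter by expression, applied to the 4 Dnmt-TKO libraries alone and set to a count of 10 and a total of 15 over them. Genes read only in wild-type cells were therefore left out. TMM scaling, quasi-likelihood tests and Benjamini-Hochberg adjustment at 0.05 followed. The biological coefficient of variation was 3.716%. The script was tested on simulated data. Alternatives were DESeq2 1.42.0, other scalings and filters, a replicate block, a fit of the genotype alone, and leaving out each library.

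Named genes were a set of anchor genes, up to 5 called members per direction of each list with the smallest p and non-overlapping libraries, the 15 largest rises and falls with a mean of at least 1 CPM, the 10 highest genes from 0 counts in vehicle, and the 10 smallest interaction p per direction. Members and lists were chosen with earlier results of these data known. Lists are described by counts and medians with no test. Promoters came from RefSeq tables on another build and were matched by symbol.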

Additional observations from a re-analysis of the deposited data

Results flagged for a closer look

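The following genes named in the text had an inhibitor change that differed between Dnmt-TKO and wild-type cells by the interaction test of edgeR (adjusted p under 0.05 over all 16370 genes). Values are the log2 change in Dnmt-TKO cells minus that in wild-type cells, with 2 libraries in each of 4 groups, and no explanation was tested. As described above, the difference was -2.55 for Atf3, -2.0 for Cd24a, -1.99 for Jun, -1.88 for Efnb2, -1.81 for Ccn1, -1.33 for Bag3, -1.25 for Mycn, -0.94 for Hmox1 and -0.76 for Serpinh1. It was -0.42 for Sox2, -0.40 for Tdgf1 and -0.27 for Nanog. In the other direction it was 2.17 for Myh14 and 0.62 for Atf4.

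Among chaperone genes, the rise was smaller in Dnmt-TKO cells for Hspb8 (difference -1.01, adjusted p = 0.000323), Hspa4l (-0.93, adjusted p = 0.000972) and Hsph1 (-0.35, adjusted p = 0.00686). Mtf1 rose further in Dnmt-TKO cells (difference 0.35, adjusted p = 0.0268). Gstm1 and Rhob fell further there, with differences of -0.63 (adjusted p = 0.0145) and -0.33 (adjusted p = 0.0478).

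Of developmental factors, Pax6 went from 0.723 to 1.48 CPM in wild type against from 30.8 to 22.8 CPM in Dnmt-TKO cells (difference -1.42, adjusted p = 0.00323), and Zic5 and Hoxd13 differed by -0.48 (adjusted p = 0.0123) and -0.94 (adjusted p = 0.0369). Tfap2c, a trophoblast and germ cell factor, went from 11.8 to 31.7 CPM in wild type against from 99.1 to 138 CPM (difference -0.95, adjusted p = 1.32e-07). Zfp42 differed by -0.23 (adjusted p = 0.04), Tuba3b by -0.52 (adjusted p = 0.037) and Ndn by -0.48 (adjusted p = 0.0465). Peg10 went from 269 to 225 CPM in wild type against from 1608 to 2139 CPM (difference 0.67, adjusted p = 2.24e-06).

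The transcripts of 2 deleted methyltransferase genes, Dnmt1 and Dnmt3b, differed by 0.40 (adjusted p = 0.000927) and 0.51 (adjusted p = 0.00036). The sodium channel gene Scn8a went from 2.16 to 11.8 CPM in Dnmt-TKO cells against from 3.67 to 4.81 CPM in wild type (difference 2.05, adjusted p = 3.19e-06). The fall of mt-Co2 was smaller in Dnmt-TKO cells (difference 0.41, adjusted p = 0.00186).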

How the results depend on the processing

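With 2 libraries a group and 4 residual degrees of freedom, small changes and genes of few counts were the least secure. Genes called up in Dnmt-TKO cells numbered 2434 with DESeq2 and 3134 with scaling to library size alone, and genes called down 2331 and 3479. Library size alone moved the share of rises among calls from 50.3% to 47.4%. Over fits that left out 1 library, rises ran from 2204 to 3554 and falls from 2482 to 3534. Rises of more than 2-fold were 464 under a filter at 1 CPM, and falls of more than 2-fold were 109 under that filter and 128 with DESeq2. Interaction calls with the lower change in Dnmt-TKO cells were 217 with DESeq2, and over fits that left out 1 library the calls ran from 116 to 428 higher and from 179 to 471 lower. The cause was not tested.

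Alternatives were run for the 131 genes that the text describes by name, and 5 of them, Hsf1, Hsf3, Dnmt3b, Hspb6 and Usp3, lost their call in 18 values, 3 of them with DESeq2 (adjusted p = 0.186 for Hsf3, 0.0798 for Hspb6 and 0.083 for Usp3) and the others without 1 TKO library. No called change among the 131 genes turned direction in the alternatives run. Deviations of same-numbered replicates from the group means had correlations of -0.035 to 0.043 between groups. Counting noise lowers such correlations, so they cannot exclude a shared culture or batch. With the replicate number as a block, calls were 3270 up and 3232 down in Dnmt-TKO cells, 3106 and 3056 in wild type, and 286 and 352 for the interaction.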
